A study of Mus musculus with 2 samples.

Results

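Heat-shock-high islet macrophages are the macrophages of a mouse pancreatic islet suspension with the most transcript of 3 heat-shock genes, Hspa1a, Hspa1b and Dnajb1. Macrophages were taken as cells with at least 200 genes, at most 10% mitochondrial unique molecular identifiers (UMIs, 1 per captured transcript), at least 5000 RNA UMIs and at least 2000 CPM (UMIs scaled to each cell's RNA total) of the complement genes C1qa, C1qb and C1qc together, which 1706 of the 2237 barcodes met. The 170 heat-shock-high cells, the top 10%, were chosen by the summed CPM of the 3 heat-shock genes, and they were set against the other 1536 gated macrophages.

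The islets came from wild-type C57BL/6J males, whose age the labels do not state. Cells of 6 to 8 mice were pooled before live DAPI- Epcam- CD45+ cells were sorted, stained with barcoded antibodies to CD9 and CD206 and read as an mRNA library and an antibody library of the same barcodes. Both groups therefore come from the same pool, sort and library, with no replicate animal or day, and no test or p-value was computed. The intervals below are 95% intervals that cover counting error only, and the spread over cells is given as the lowest, median and highest cell.

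The heat-shock response is the rapid transcription of chaperone genes that heat shock factor 1 (HSF1) drives when proteins misfold. HSP70 proteins such as Hspa1a bind unfolded chains, J-domain proteins such as Dnajb1 bring them clients and stimulate their ATPase, and HSP110 and BAG proteins release the nucleotide and the client. Islet macrophages are a resident population next to the hormone-secreting cells, and the enzymatic and mechanical release of cells from a tissue is itself known to induce heat-shock and immediate-early genes.

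The score chose the cells, so the levels of its 3 genes are a description. The heat-shock-high cells had a median score of 13551 CPM, with a lowest cell at 8918 and a highest at 41197 CPM. The other macrophages had a median of 111 CPM and ran from 0 to 8881 CPM. The 3 cells just inside the limit scored 8918, 8949 and 9034 CPM and the 3 just outside it 8881, 8873 and 8839 CPM, as a limit set by rank gives. Within 10% of the limit lay 48 cells, 20 of them inside. The heat-shock-high cells are thus a range of a score, and whether they form a type was not tested.

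Across all gated macrophages the score had a broad low peak and a second, smaller one at high values. No UMI of the 3 genes was counted in 312 cells (18.3%), while 492 cells (28.8%) scored 1000 CPM or more. Between 200 and 1000 CPM lay 217 cells, fewer than the 997 below 200 CPM. In bins of 0.1 on the log10 scale, the fewest cells between the peaks were 20, from 388 to 491 CPM, and the most in the upper peak were 55, from 7933 to 9990 CPM. The limit runs through that bin, with 24 of its cells inside, so the heat-shock-high cells are the upper side of the second peak and 322 cells above 1000 CPM, among them its lower side, were counted with the other macrophages.

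**Figure D1:**
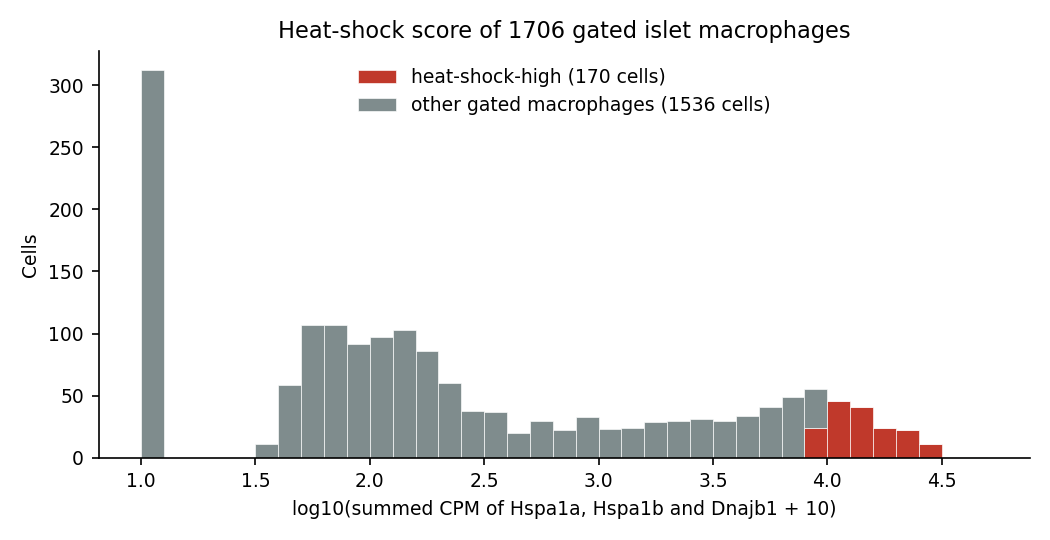
Number of gated macrophages (vertical axis) by heat-shock score on a log scale, log10 of the summed CPM of Hspa1a, Hspa1b and Dnajb1 plus 10 (horizontal axis), with the 170 heat-shock-high cells in red stacked on the 1536 other macrophages in grey. The 312 cells at a score of 0 form the bar at the left, and the limit runs through the bin with most cells of the upper peak, which holds 24 red and 31 grey cells.

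Hspa1a (ENSMUSG00000091971, chromosome 17, 34969359 to 34972156 in GRCm38) and Hspa1b (ENSMUSG00000090877, chromosome 17, 34956429 to 34959238) encode the stress-inducible HSP70 and lie 10120 bases apart. Their promoters are shown because both genes choose the cells and these promoters are nearly identical. The 250 bases before each start are given 5' to 3' on the minus strand from RefSeq on GRCm38.p6, and capitals mark GAANNTTC, the inverted pair of the HSF1 recognition unit GAA.
Hspa1a promoter, chr17:34972157-34972406: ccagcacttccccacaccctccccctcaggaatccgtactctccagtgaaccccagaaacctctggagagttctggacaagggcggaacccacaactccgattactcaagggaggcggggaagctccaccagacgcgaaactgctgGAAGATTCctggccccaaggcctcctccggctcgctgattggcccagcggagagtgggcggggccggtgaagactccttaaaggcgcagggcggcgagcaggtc
Hspa1b promoter, chr17:34959239-34959488: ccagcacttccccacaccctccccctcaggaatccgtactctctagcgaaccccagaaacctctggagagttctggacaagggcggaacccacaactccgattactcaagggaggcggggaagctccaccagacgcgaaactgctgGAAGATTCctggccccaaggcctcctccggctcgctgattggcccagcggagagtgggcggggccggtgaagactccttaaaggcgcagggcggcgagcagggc
The sequences differ at 3 of 250 bases (98.8% identity), and the marked pair lies 104 to 97 bases before the start in both. An inverted pair in either arrangement, GAANNTTC or TTCNNGAA, each its own reverse complement, occurs in 14.5% of the 27025 promoters of the same table, so a match describes the letters and is not evidence of binding. The transcribed sequences were not compared. Whether reads assigned to one gene come from the other was not tested, so their separate values are uncertain.

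Hspa1a stood at 6958 CPM in the heat-shock-high cells and 465 CPM in the other macrophages, and Hspa1b at 7231 against 526 CPM. Dnajb1 stood at 816 against 111 CPM. In the median heat-shock-high cell Hspa1a gave 46.5%, Hspa1b 48.6% and Dnajb1 4.02% of the score, so the HSP70 pair decided which cells were taken. When cells were ranked by Hspa1a and Hspa1b alone, 167 of the 170 were the same cells, and Dnajb1, then no part of the choice, stood at 792 CPM in them against 113 CPM in the rest, a ratio of 7.003 (6.668 to 7.355). When cells were ranked by Dnajb1 alone, 98 of the 170 (57.6%) were shared, and Hspa1a stood at 5072 against 665 CPM (7.62-fold, 7.48 to 7.78). The J-protein and the HSP70 pair were therefore high in overlapping but not identical sets of cells.

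The heat-shock-high cells carried the macrophage markers. Of 9 markers that the gate did not use, 8, among them Adgre1, Csf1r, Cd68 and Lyz2, had UMIs in 82 T cells of the same suspension. They stood 17.0-fold to 59.8-fold above the T cell level in the heat-shock-high cells and 16.2-fold to 56.5-fold above it in the other macrophages. The ninth, Mertk, stood at 6.49 CPM in the heat-shock-high cells and 17.2 CPM in the other macrophages, with no UMI in the T cells. Their median depth was 20115 RNA UMIs against 21071 in the other macrophages. They held fewer genes at equal depth, a median of 1756 against 1902 after each cell was thinned to 5000 UMIs. The median mitochondrial share was 1.09% against 1.41%. Doublets were not removed, and Scrublet doublet scores had medians of 0.0403 against 0.0663.

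The summed markers of other cell types were level or lower in the heat-shock-high cells, apart from T cell genes other than Il7r. Endocrine hormone genes, which macrophages do not make, summed to 1192 CPM in the heat-shock-high cells and 3125 CPM in the other macrophages, with medians of 836 and 1034 CPM over cells. Insulin (Ins2) stood at 698 against 1796 CPM, and 9 of the 10 endocrine genes with enough UMIs were at least 1.5-fold lower. Acinar genes summed to 1.13 against 1.36 CPM and natural killer cell genes to 3.39 against 8.69 CPM. T cell genes summed to 379 against 623 CPM, but nearly all of this was the cytokine receptor Il7r, at 355 against 614 CPM, which 85.9% and 93.6% of the cells held. The other 9 T cell genes summed to 24.6 against 9.20 CPM (2.67-fold, 2.08 to 3.40). Of their 87 UMIs in the heat-shock-high cells 79 lay in 1 cell, and without it the sum was 2.28 against 9.20 CPM (0.248, 0.106 to 0.494), a split made after the values were seen. Dendritic cell genes summed to 29.6 against 60.0 CPM. B cell (106 against 107 CPM), neutrophil (44.6 against 45.2 CPM) and endothelial genes (16.1 against 16.6 CPM) were level, and fibroblast and mast cell genes stood at 1.69 CPM each, against 6.30 and 2.07 CPM.

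Of 8508 genes with at least 200 UMIs over both groups, leaving out the 3 genes of the score, 730 were at least 1.5-fold higher in the heat-shock-high cells (8.58%) and 2636 at least 1.5-fold lower (31%). The excess of lower genes goes with a shift of the whole distribution: the median log2 ratio over all genes was -0.28. Relative to that median 1374 genes (16.1%) were higher and 1655 (19.5%) lower. In what follows "higher" and "lower" mean past 1.5-fold on the CPM scale, and medians of gene groups are to be read against -0.28.

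Chaperones and co-chaperones stood apart from that shift. Of 83 listed genes besides the score genes, 75 had enough UMIs, and 27 of these (36%) were higher and 5 lower, against 8.58% and 31% of all genes. Their median log2 ratio was 0.26, and their summed level was 41862 CPM in the heat-shock-high cells against 23198 CPM in the other macrophages (1.80-fold, 1.79 to 1.81). Per cell the sum had a median of 40000 CPM against 21541 CPM. Relative to the median gene, 35 of the 75 were higher.

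Among HSP70 and HSP110 genes, 7 of the 10 with enough UMIs were higher (70%, against 8.58% of all genes) and none lower. Hsph1 (ENSMUSG00000029657, chromosome 5), the inducible HSP110 that exchanges the nucleotide of HSP70, stood at 2555 against 534 CPM, a ratio of 4.78 (4.66 to 4.91). Its heat-shock-high cells ran from 0 over a median of 2124 to 9183 CPM and the other macrophages from 0 over 355 to 4379 CPM. The ranges overlap, but 95.3% of the heat-shock-high cells lay above the median of the others. Hspa8, the constitutive cytosolic HSP70, stood at 6843 against 2668 CPM (2.56-fold, 2.53 to 2.60), with medians of 6489 and 2140 CPM over cells and every heat-shock-high cell above the median of the others. Hspa4l and Hspa4, both of the HSP110 family, were 2.63-fold and 1.62-fold higher, and Hspa9, the mitochondrial HSP70, 1.76-fold.

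Hspa1l, an HSP70 gene known from germ cells, had the largest ratio of any gene tested outside the score, 44.9 against 3.16 CPM (14.2-fold, 11.03 to 18.3). It lies 546 bases from Hspa1a, whose ratio was 14.97, and it is uncertain which of the neighbours these UMIs came from. Hspa13, an HSP70 relative of microsomes, was 1.78-fold higher (1.46 to 2.16) at 35.0 against 19.7 CPM. The members that did not pass 1.5-fold were Hspa5, the endoplasmic reticulum HSP70 also called BiP, at 3071 against 3441 CPM (0.892), Hyou1, the reticulum HSP110 (0.763), and Hspa14, a ribosome-associated HSP70 (0.767).

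Of the 4 HSP90 genes the cytosolic pair was higher. Hsp90aa1, the inducible cytosolic HSP90, stood at 5669 against 2569 CPM (2.21-fold, 2.17 to 2.24), with medians of 5347 and 2160 CPM over cells. Hsp90ab1, the constitutive cytosolic form, stood at 5875 against 3087 CPM (1.90-fold). The reticulum form Hsp90b1 had a ratio of 0.889 and the mitochondrial form Trap1 0.791 (0.566 to 1.08), neither past 1.5-fold.

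J-proteins went both ways, but with more higher and fewer lower genes than the shares of all genes. Of 22, 6 were higher (27.3%, against 8.58% of all genes) and 3 lower (13.6%, against 31%). Their median log2 was -0.03, above the -0.28 of all genes. Dnaja1, a cytosolic partner of HSP70, stood at 3696 against 1317 CPM (2.81-fold, 2.75 to 2.86), and Dnajb4, a close relative of Dnajb1, at 269 against 78.3 CPM (3.43-fold). Dnaja4 was 3.33-fold, Dnajb9, a J-protein of the reticulum, 2.29-fold, Dnajb5 2.26-fold and Dnajb2 1.99-fold higher. Lower were Dnaja3, the mitochondrial J-protein (0.360), Dnajb14 (0.548) and the ribosome-associated Dnajc2 (0.606). The other 13 lay within 1.5-fold.

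Chaperonins were led by the mitochondrial pair. Hspd1 (HSP60) stood at 1343 against 610 CPM (2.20-fold, 2.13 to 2.27) and its lid Hspe1 (HSP10) at 1583 against 769 CPM (2.06-fold, 2.001 to 2.121). The annotations of these neighbours overlap on chromosome 1, so their reads may be shared. Of the cytosolic TRiC subunits and prefoldins, Cct7 was higher (1.86-fold), and the rest, from Pfdn1 at 0.699 to Cct8 at 1.39, lay within 1.5-fold. Of the small heat-shock proteins only Hspb1 and Hspb11 had enough UMIs. Hspb1 (HSP27), which holds unfolded proteins without ATP, stood at 1174 against 715 CPM (1.64-fold), with medians of 434 and 47.9 CPM over cells.

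The HSF1 unit can also be seen near Hsph1 and Hspe1, which took no part in the score. For each, 30 bases before 1 RefSeq start are shown because they hold different arrangements of it. The share of the listed chaperone genes with a pair was not computed, so these windows are picked examples only. Both are given 5' to 3' from RefSeq on GRCm38.p6 with the unit pairs in capitals, Hsph1 on the minus and Hspe1 on the plus strand.
Hsph1 window, chr5:149636351-149636380: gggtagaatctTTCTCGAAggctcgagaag
Hspe1 window, chr1:55088053-55088082: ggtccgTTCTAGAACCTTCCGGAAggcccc
The Hsph1 window holds 1 pair, TTCNNGAA, 33 to 26 bases before the start used. It lies inside the Hsph1 annotation, which runs from 149616843 to 149636498, so it is upstream of that start only. The Hspe1 window holds 3 overlapping pairs 89 to 72 bases before the start, and lies inside the annotation of its neighbour Hspd1, which ends at 55088243. At least 1 run of 3 units, GAANNTTCNNGAA or its reverse complement TTCNNGAANNTTC, occurs in 0.514% of the 27025 promoters searched, against 14.5% with a pair.

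Of 21 co-chaperones and regulators with enough UMIs, 8 were higher (38.1%, against 8.58% of all genes) and 2 lower (9.52%, against 31%). Bag3 (ENSMUSG00000030847, chromosome 7), which couples HSP70 to autophagy, stood at 713 against 107 CPM, a ratio of 6.64 (6.31 to 6.98). Over cells it ran from 0 over a median of 573 to 5569 CPM in the heat-shock-high cells and from 0 over 46.6 to 2781 CPM in the other macrophages. Partners of HSP90 were higher as well: Chordc1 (3.69-fold), the ATPase activators Ahsa2 (3.27-fold) and Ahsa1 (2.06-fold), Stip1, which bridges HSP70 and HSP90 (1.98-fold), and Ptges3, known as p23 (1.84-fold). Cacybp was 2.97-fold and the HSP70-interacting St13 1.68-fold higher. Lower were Bag4 (0.523) and the chaperone-linked ubiquitin ligase Stub1 (0.637). Hsf1 mRNA itself was level at 12.99 against 14.2 CPM (0.915, 0.661 to 1.24).

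Other genes known as HSF1 targets showed the same direction. Of the 8 with enough UMIs, 6 were higher (75%, against 8.58% of all genes) and none lower, around a median log2 of 1.33. Ubb, a polyubiquitin gene, stood at 6102 against 2625 CPM (2.32-fold). Zfand2a, a proteasome-associated zinc-finger protein, was 3.35-fold, Tcp11l2 3.35-fold, the GTPase Rrad 2.72-fold and Ier5, which acts on HSF1, 1.98-fold higher. Sqstm1, the autophagy receptor p62, stood at 3899 against 2742 CPM (1.42-fold) and Mrpl18 at 0.747, both within 1.5-fold.

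**Figure D2:**
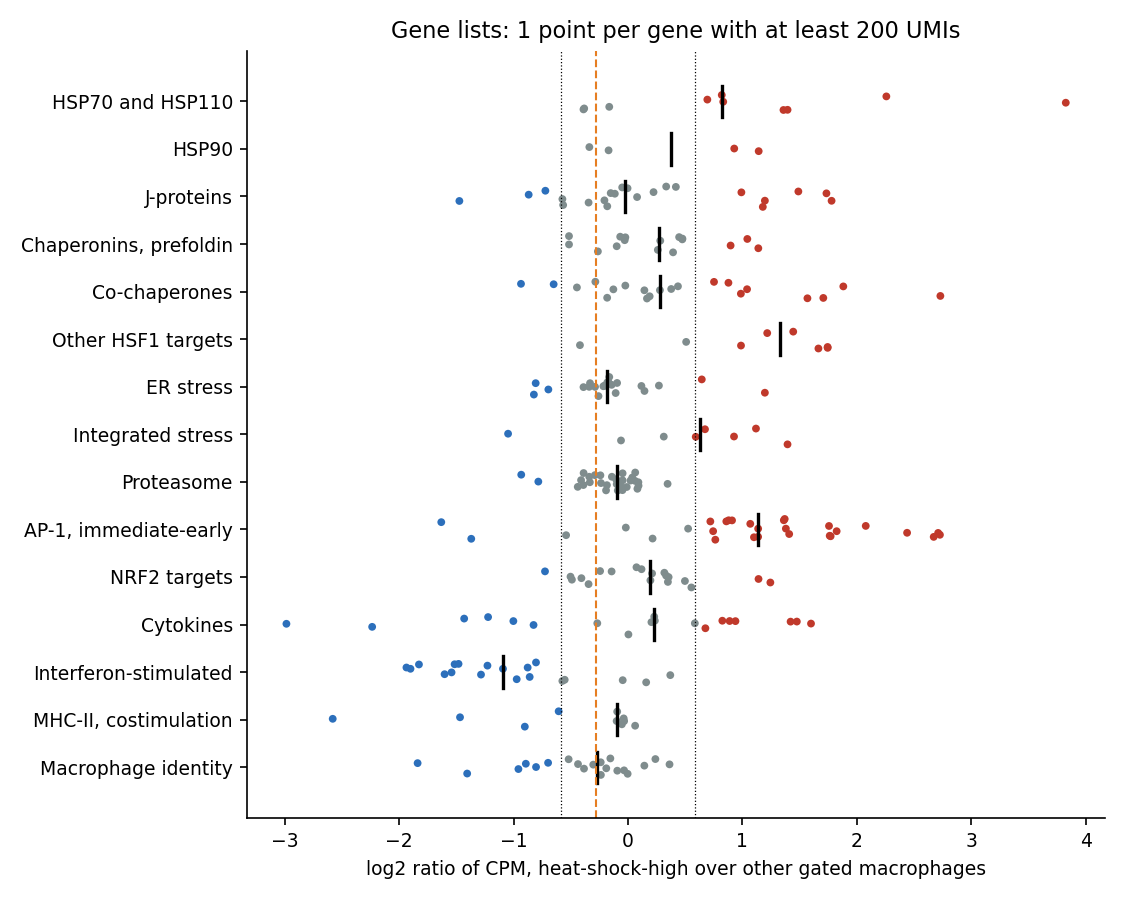
log2 ratio of CPM of heat-shock-high over other gated macrophages (horizontal axis) for genes with at least 200 UMIs in 15 gene groups (rows), 1 point per gene, with red points at least 1.5-fold higher, blue points at least 1.5-fold lower and a black bar at each group's median. Dotted lines mark 1.5-fold and the dashed line the median of all 8508 genes at -0.28; other HSF1 targets and AP-1 genes lie furthest right and interferon-stimulated genes furthest left.

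Other arms of protein quality control were mixed. Of 21 genes of the endoplasmic reticulum unfolded-protein response 2 were higher (9.52%) and 3 lower (14.3%), around a median log2 of -0.18. The share of higher genes is near the 8.58% of all genes, and that of lower genes is under their 31%. Xbp1, its transcription factor, stood at 258 against 233 CPM (1.105-fold), Ern1, the sensor IRE1, was 1.56-fold higher, and Sel1l (0.565), Pdia4 (0.571) and Herpud1 (0.617) were lower. Of 31 proteasome subunits none was higher and 2 were lower (6.45%), Psmb5 (0.524) and Psmd13 (0.581), around a median log2 of -0.10. Both proteasome shares are under those of all genes, so the reticulum and proteasome counts are no result about these groups. In the integrated stress response 5 of 8 genes were higher (62.5%) and 1 lower (12.5%). Ppp1r15a, the phosphatase subunit GADD34, stood at 881 against 335 CPM (2.63-fold) and Atf4 at 335 against 154 CPM (2.17-fold). Ddit3 (CHOP) was 1.90-fold, Cebpb 1.59-fold and Slc3a2 1.51-fold higher, while Nupr1 was lower (0.483). The medians of the reticulum and proteasome groups lie above -0.28, so relative to the median gene their sign turns.

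Immediate-early genes are the AP-1, EGR, NR4A and KLF transcription factors that cells transcribe within minutes of a stimulus. They were the listed group with the largest share of higher genes after the score genes, 23 of 29 (79.3%, against 8.58% of all genes). Lower were 2 (6.90%, against 31% of all genes), and the median log2 was 1.14. Jun stood at 631 against 95.3 CPM (6.62-fold, 6.27 to 6.99), Fosb at 184 against 28.0 CPM (6.55-fold, 5.92 to 7.24) and Egr1 at 489 against 90.1 CPM (5.42-fold). Klf4 was 6.37-fold, Nr4a2 4.22-fold, Nr4a1 3.54-fold, Fos 3.38-fold and Atf3 2.20-fold higher. Over cells, Fos had a median of 443 CPM in the heat-shock-high cells against 38.9 CPM in the others, and Jun ran from 0 over 298 to 10270 CPM against 0 over 0 to 3371 CPM. Socs3, a feedback inhibitor of cytokine signalling (0.323), and the phosphatase Dusp2 (0.387) were the exceptions.

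The levels went up along the score and not in the top range alone. Gated macrophages were put into 10 bins of nearly equal size by score, of which bin 10 is the heat-shock-high group and the cells at 0 lie in bins 1 and 2. Hsph1 stood at 273 CPM in bin 1, 365 in bin 5, 807 in bin 8, 1254 in bin 9 and 2555 in bin 10. Bag3 stayed between 37.5 and 54.9 CPM in bins 1 to 6 and then stood at 89.4, 201, 349 and 713 CPM. Both were 2.04-fold higher in bin 10 than in bin 9, and Jun 2.48-fold. Hspa8 began earlier, at 2001 CPM in bin 5 against 1200 CPM in bin 1, and was 1.31-fold higher in bin 10 than in bin 9.

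Most of the named lower genes were already lower in bin 9 than in bin 1, 66 of 75, and 9 were not. All 74 of 74 named higher genes were higher in bin 9 than in bin 1. These genes were called by their ratio of bin 10 over the other bins. The same shares over all tested genes were not computed, so the counts are a description of the named genes alone. Tgfbr1, a receptor for transforming growth factor beta, stood at 989 CPM in bin 1, 520 in bin 7, 279 in bin 9 and 201 in bin 10. Il15 held between 82.0 and 130 CPM in bins 1 to 7 and stood at 26.5, 12.5 and 7.34 CPM in bins 8 to 10. Ccl7 ran otherwise, at 13.2 CPM in bin 1, 74.01 in bin 9 and 14.7 in bin 10, as did Mertk, at 11.4, 19.4 and 6.49 CPM.

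**Figure D3:**
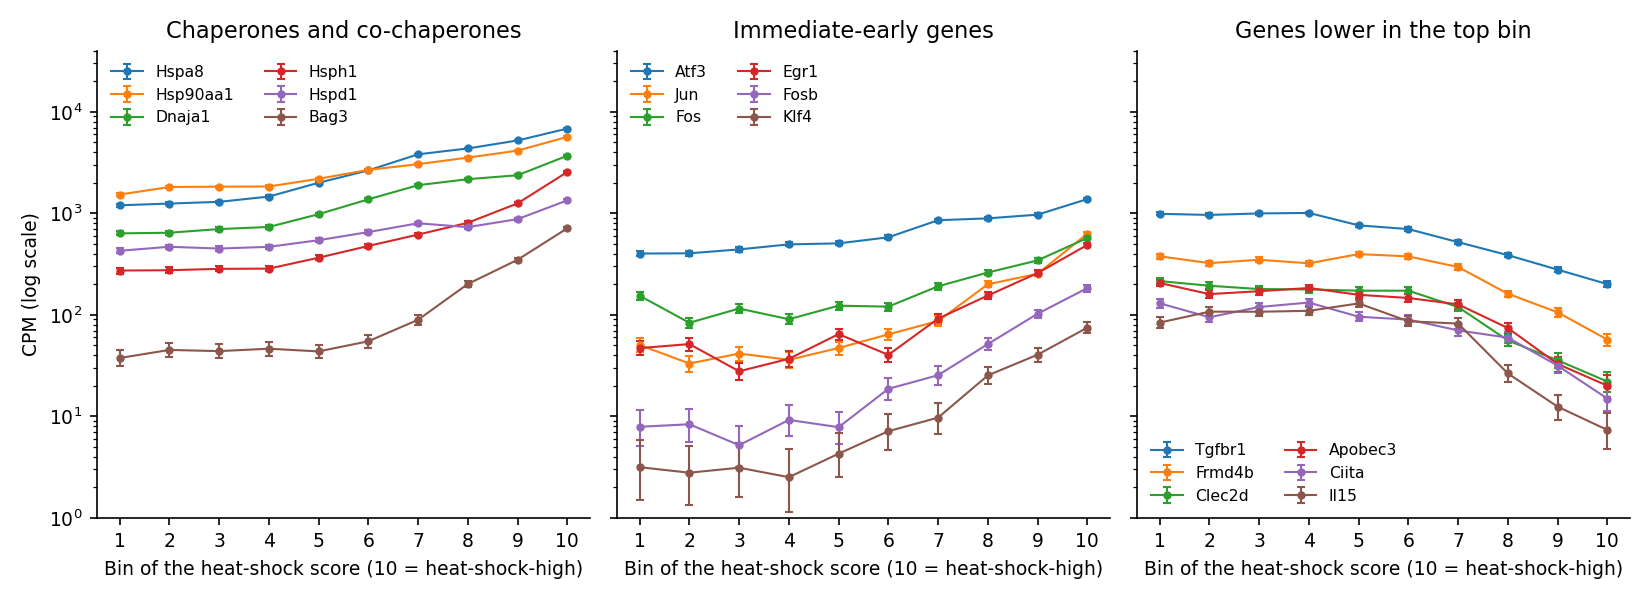
CPM on a log scale (vertical axis) of 18 genes in 10 bins of gated macrophages by heat-shock score (horizontal axis, bin 10 being the heat-shock-high cells), with exact Poisson 95% intervals that cover counting error only. Chaperones and immediate-early genes go up mostly from bin 5 or 6 onward, as Hsph1 at 365 CPM in bin 5 and 2555 CPM in bin 10, while Il15, Ciita and Tgfbr1 go down over the upper bins.

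Within the 170 heat-shock-high cells, chaperones varied together, and they did so across the 1536 other macrophages too. Spearman's rho between Hsph1 and Hspa8 was 0.629 in the heat-shock-high cells and 0.574 in the others. Between Hsph1 and Hsp90aa1 it was 0.628 against 0.609. Between Hsph1 and Bag3 it was 0.538 against 0.326, and between Hsph1 and Fosb 0.432 against 0.326. Hsph1 and Hmox1 had a rho of -0.027 in the heat-shock-high cells, against 0.337 across the other macrophages. These are descriptions across cells of 1 library that share its depth and its scaling to CPM.

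The oxidative stress genes were led by Hmox1, the heme-degrading enzyme. It stood at 6928 against 2925 CPM (2.37-fold, 2.34 to 2.40), with medians of 6896 and 1606 CPM over cells. Gclc, of the first enzyme of glutathione synthesis, stood at 548 against 248 CPM (2.20-fold, 2.10 to 2.32). These were the 2 higher genes (10.5%) among 19 targets of the oxidant-sensing factor NRF2, a share near the 8.58% of all genes, and 1 was lower (5.26%), the transporter Abcc1 (0.605). Prdx1, a peroxiredoxin, stood at 4293 against 4742 CPM (0.905), and the median log2 of the group was 0.20. Along the score Hmox1 and Gclc had most of their difference below the top range: Hmox1 stood at 1434 CPM in bin 1, 5595 in bin 9 and 6928 in bin 10, and Gclc at 516 CPM in bin 9 and 548 CPM in bin 10.

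Of 19 inflammatory mediators 7 were higher (36.8%, against 8.58% of all genes) and 6 lower (31.6%, the share of all genes being 31%). The neutrophil chemokine Cxcl2 stood at 9124 against 3011 CPM (3.03-fold, 2.99 to 3.07), with medians of 6765 and 638 CPM over cells, and its difference, too, lay mostly below the top range, at 1280 CPM in bin 1 and 7074 CPM in bin 9. Ptgs2 (cyclooxygenase 2) was 2.78-fold, oncostatin M (Osm) 2.68-fold, Il6 1.92-fold, the macrophage chemokine Ccl3 1.85-fold and Cxcl1 1.77-fold higher. Il1b, at 2680 against 1788 CPM, lay just under 1.5-fold (1.499), and Tnf stood at 550 against 469 CPM (1.17-fold). Lower were Il12b, a subunit of interleukin 12 and 23 (21.2 against 168 CPM, 0.126), the growth factor Csf1 (0.212), Ccl7 (0.371), the interleukin 1 antagonist Il1rn (0.428), Cxcl16 (0.499) and Ccl9 (0.564). Feedback genes of NF-kB went both ways, with Nfkbid at 1.88 and Nfkbib at 1.55 and with Tnip3 (179 against 661 CPM, 0.271), Tnip1 (0.494) and Birc3 (0.602) lower, around a median log2 of 0.00.

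Interferon-stimulated genes made up the group with the lowest median besides hormone and dendritic cell genes. None of 19 was higher and 14 were lower (73.7%, against 31% of all genes), with a median log2 of -1.09. Relative to the median gene 12 of the 19 were still lower, where the share of all genes is 19.5%. Ifit2, an antiviral RNA-binding protein, stood at 155 against 550 CPM (0.282, 0.258 to 0.307). Ifit3 (0.350), Oasl2 (0.358), Ifi205 (0.261) and the chemokine Cxcl9 (0.268) were lower too. Cxcl9 was found in 3 heat-shock-high cells and 80 other macrophages. In it 1 cell held 26.4% of the UMIs, and without that cell the ratio was 0.367. The summed list stood at 4911 against 7521 CPM, with medians of 2011 and 2638 CPM over cells, a smaller difference than that of the single genes, and the cells ran up to 64526 against 76198 CPM.

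Of 10 genes of the major histocompatibility complex class II and costimulation 4 were lower (40%, against 31% of all genes) and none higher, while the summed level was 57015 against 57265 CPM. The 4 were Ciita, the class II transactivator (14.96 against 89.6 CPM, 0.167), Cd80 (0.361), Cd40 (0.535) and Cd86 (590 against 899 CPM, 0.657). Of 20 macrophage identity genes 6 were lower and none higher, around a median log2 of -0.27. The share of lower genes (30%) and the median are near those of all genes, so the count is no result about the group. Tgfbr1 stood at 201 against 718 CPM (0.279), with medians of 136 and 430 CPM over cells. Spi1, which encodes the myeloid factor PU.1, stood at 273 against 507 CPM (0.538), and Mertk (0.377), Fcgr1 (0.515), Mrc1 (0.573) and Fcgr3 (0.616) were lower. C1qa stood at 1958 against 2620 CPM (0.747), Cx3cr1 at 95.4 against 113 CPM and Apoe at 10761 against 8763 CPM (1.23-fold), none past 1.5-fold. The gate used C1qa, and the median C1q sum was 5317 CPM in the heat-shock-high cells against 7068 CPM in the other macrophages.

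Over all genes tested, the 15 higher genes with the interval bounds furthest from 1 were Hspa1l, Jun, Bag3, Fosb and Klf4, already given, and Slc8a2, a sodium-calcium exchanger (75.7 against 7.92 CPM, 9.55-fold, 8.03 to 11.4) whose gene lies 76 bases from the also higher Kptn, Ryr1, the calcium release channel of muscle (75.1 against 10.4 CPM, 7.19-fold), Rgcc, a regulator of the cell cycle (7.15-fold), Atg2a, a lipid transfer protein of autophagosomes (228 against 36.4 CPM, 6.26-fold), Tmem267 (6.53-fold), Elmod3 (7.85-fold), Samd11 (8.21-fold) and the transcripts Gm26887 (8.63-fold), 1700016P03Rik (6.66-fold) and Gm15726 (6.50-fold). In Rgcc 1 cell held 16.1% of the UMIs. Samd11 overlaps its neighbour Noc2l, so its reads are uncertain. Levels of most of these were low, and the median cell of both groups held no UMI of Slc8a2, Ryr1, Rgcc, Elmod3 or Samd11.

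The 15 lower genes chosen in the same way included Il15, a cytokine of lymphocyte survival (7.34 against 81.0 CPM, 0.0906, 0.0591 to 0.133), Il12b and Ciita, already given, Gbp5, an interferon-induced GTPase (29.1 against 171 CPM, 0.170), Apobec3, an antiviral deaminase (20.05 against 136 CPM, 0.147), Clec2d, a ligand of a natural killer cell receptor (0.154), Myo1f, a myosin of leukocytes (34.2 against 200 CPM, 0.171) and Frmd4b (57.0 against 295 CPM, 0.193). Aoah, which inactivates lipopolysaccharide, stood at 6.21 against 52.4 CPM (0.119), the arginine transporter Slc7a2 at 0.0746 and Slfn1 at 0.108. Gpnmb, a glycoprotein of lipid-laden macrophages, stood at 1.69 against 26.2 CPM (0.0647, 0.0237 to 0.141). It was found in 6.45% of the other macrophages, and 1 cell held 14.1% of its UMIs. Along the score it did not fall evenly, at 6.62 CPM in bin 1, 56.2 in bin 4 and 9.34 in bin 9. Zfp366 (0.0220, 0.000556 to 0.123), Gm15987 and Gm1976 had 1 UMI each in the heat-shock-high cells. Genes of dendritic cells, which Zfp366 also marks, were lower in the same comparison, with Ccr7 at 4.52 against 21.1 CPM and Il4i1 at 0.847 against 9.11 CPM, and their part in these differences was not tested.

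The antibody counts, which took no part in the choice of cells, gave less CD9, a tetraspanin, on the heat-shock-high cells. The mean was 1133 CD9 UMIs per heat-shock-high cell and 1892 per other macrophage, a ratio of 0.599 (0.596 to 0.602). The heat-shock-high cells ran from 2 over a median of 461 to 9451 UMIs and the other macrophages from 6 over 678.5 to 37469 UMIs, so the groups overlap almost throughout. CD9 did not follow the score evenly, with medians of 311.5 in bin 7, 1068 in bin 8, 889 in bin 9 and 461 in bin 10. Cd9 mRNA stood at 205 against 219 CPM (0.937, 0.867 to 1.01).

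CD206, the mannose receptor encoded by Mrc1, had a mean of 15.1 UMIs per heat-shock-high cell and 26.2 per other macrophage (0.576, 0.554 to 0.600), but medians of 10 and 9 UMIs, the other way round. The top 1% of the other macrophages held 37.1% of their CD206 UMIs, and for CD9 the top 1% held 9.66%. Mrc1 mRNA stood at 18.9 against 33.03 CPM.

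**Figure D4:**
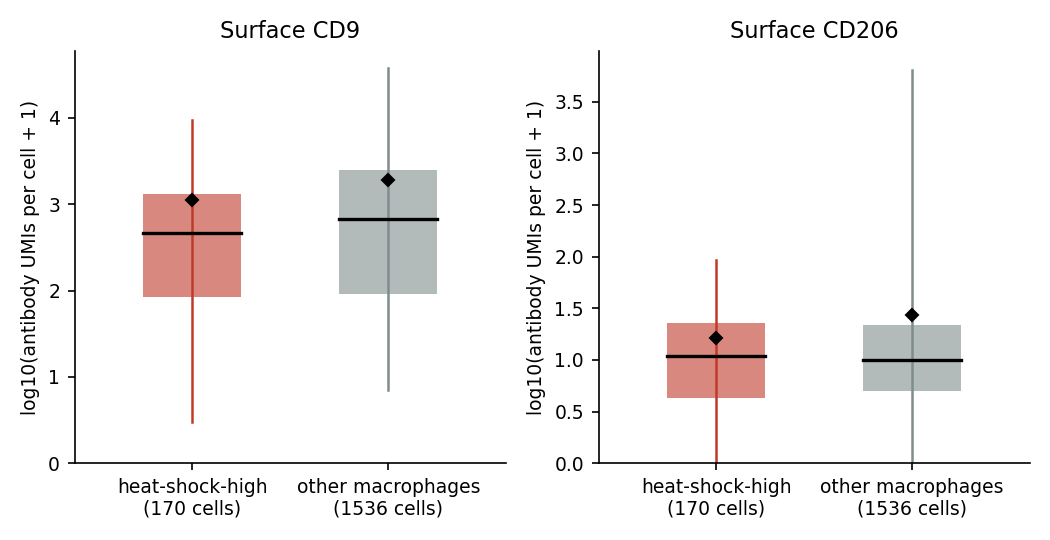
Antibody UMIs per cell on a log scale, log10 of the count plus 1 (vertical axes), for CD9 (left) and CD206 (right) in the heat-shock-high cells and the other macrophages. Boxes span the quartiles, black lines are medians, diamonds means and vertical lines the full range; the median CD9 count is 461 on the heat-shock-high cells and 678.5 on the others, and the CD206 medians are 10 and 9.

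Scores at or over the limit were found mostly in cells with macrophage transcripts. Outside the macrophage gate, 297 cells passed the same limits on genes, mitochondrial share and UMIs, with a median of 14250 UMIs. Of these, 7 reached the limit (2.36%), and 6 of the 7 held at least 500 CPM of the C1q genes. The 6 therefore lay near the gate, though the share of all 297 with as much C1q was not computed. A score of 1000 CPM or more was reached by 26 of the 297 (8.75%), against 28.8% of the gated macrophages. None of the 82 T cells reached the limit (exact 95% interval of the share 0 to 4.40%). Their median score was 0 at a median of 9650 UMIs. Chaperones were lower in T cells as well: Hsph1 stood at 154 CPM and Bag3 at 36.1 CPM there, against 534 and 107 CPM in the other macrophages. C1qa, which T cells do not make, stood at 25.6 CPM in them, and the part of free RNA in these values was not tested.

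The heat-shock-high cells were further set beside the top 10% of the same macrophages by 3 other scores. Each set holds 10% of the same cells, so unrelated scores would share about 10%. They shared 70 of 170 cells (41.2%) with the cells highest in Fos, Fosb, Jun, Egr1 and Atf3. With those highest in Gdf15, Osm and Gclc they shared 46 (27.1%), and with those highest in Isg15, Rsad2 and Ifit1 to Ifit3 10 (5.88%). The 95% interval of this last share, 2.86% to 10.6%, holds 10%. Hsph1 stood at 2555 CPM in the heat-shock-high cells, against 2028 CPM in the whole AP-1 set, 1293 CPM in the Gdf15 set and 544 CPM in the interferon set. Bag3 stood at 713 CPM in the heat-shock-high cells, 555 CPM in the AP-1 set, 316 CPM in the Gdf15 set and 135 CPM in the interferon set. Leaving the shared cells to the heat-shock-high group takes high scores out of the other sets, in which Hsph1 then stood at 1032, 860 and 478 CPM and Bag3 at 330, 178 and 89.6 CPM. Hmox1 differed less between the heat-shock-high cells (6928 CPM) and the whole Gdf15 set (6811 CPM). Prdx1 stood at 4293 CPM in the heat-shock-high cells, against 6322 CPM in the whole Gdf15 set and 6513 CPM in the whole interferon set.

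**Figure D5:**
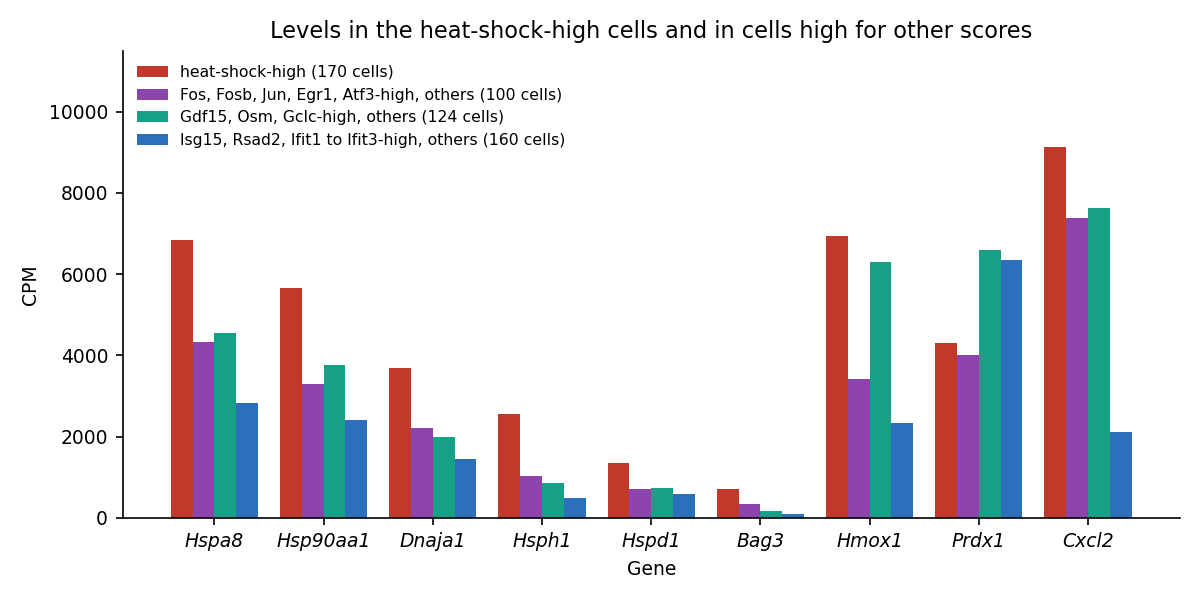
CPM (vertical axis) of 9 genes in the 170 heat-shock-high cells (red) and in the cells high for Fos, Fosb, Jun, Egr1 and Atf3 (purple), for Gdf15, Osm and Gclc (green) and for interferon-stimulated genes (blue), each without cells shared with the heat-shock-high group, which lowers their chaperone levels by construction. The red bar is the tallest for each chaperone and for Hmox1 and Cxcl2, whereas Prdx1 is higher in the green set (6592 CPM) and the blue set (6350 CPM).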

How the data were processed

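The mRNA and antibody libraries of 1 pooled sample share all 2237 barcodes, none repeated. The deposited values are UMI counts per barcode for 32285 genes and 2 antibody tags, which the authors produced (per the file headers, in Cell Ranger 8.0.1) on mm10, per the submitters' processing notes. How barcodes were kept, how strands were counted and whether doublets or free RNA were removed is stated in none of the sources used here. Where gene IDs shared a symbol (38 symbols), the ID with more UMIs kept it.

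Of the barcodes, 2215 passed the limits on genes (200) and mitochondrial share (10%), and 212 of these had under 5000 RNA UMIs. UMIs were summed over the cells of a group and scaled to its RNA total (CPM), 3541894 UMIs in heat-shock-high cells and 33818332 in other macrophages. Ratios carry exact conditional binomial 95% intervals, bins exact Poisson intervals. Cells vary more than counting does, so these intervals are too narrow for differences between mice. A gene was called at 1.5-fold with at least 200 UMIs over both groups. The members, gene groups and thresholds were chosen with earlier results of these data known.

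From the fixed groups, chaperones, co-chaperones and HSF1 targets could all be named, with up to 6 genes per direction from the other groups, ordered by the interval bound nearest to 1, and a short set named whatever its ratio. Some genes of these groups are not reported here. From all genes the 15 higher and 15 lower were taken by the same bound, apart from endocrine, acinar, mitochondrial and ribosomal protein genes and those with over 20% of UMIs in 1 cell. Trbc2, Kptn, Noc2l and macrophage markers given as checks are named outside this rule. T cells had under 500 CPM of C1q and at least 3 UMIs of CD3 or T cell receptor genes. Scrublet, run by scanpy 1.11.5, marked 7 cells at its automatic threshold (0.316%), too few to be accepted, so doublets were kept and the 39 highest scores (1.76%) were removed as an alternative only. Promoters came from RefSeq (GRCm38.p6), which matched 79 of 96 chaperone, HSF1-target and score genes. The ratio step was tested on simulated counts. Python 3.11.15, numpy 2.4.6, scipy 1.17.1 and pandas 2.3.3 were used. Alternatives were other shares of cells, depth, doublets, islet RNA, score genes, scaling and count filters.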

Additional observations from a re-analysis of the deposited data

How the results depend on the processing

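The cells of 1 pooled sample cannot show how far mice differ, and each value depends on where a continuous score was cut. No paired analysis was possible because the series holds 1 sample with no replicate. Over 13 other settings, 25 to 35 chaperones and 21 to 24 immediate-early genes were higher. The count of higher genes was 1374 relative to the median gene and 1307 with at least 50 UMIs, and that of lower genes 1655 relative to the median gene and 1735 with at least 500 UMIs, which tests fewer genes.

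The CD9 antibody ratio was 0.563 for the top 5% of cells, 0.819 for the top 20%, 0.654 within deciles of depth, 0.585 with Hspa1a and Hspa1b alone, 0.575 with Dnajb1 alone, 0.608 without the highest doublet scores, 0.587 with at least 10000 UMIs and 0.567 without the cells richest in islet RNA. It was 0.633 per RNA UMI, 0.649 as the mean of per-cell values per RNA UMI and 0.679 for medians. The CD206 antibody ratio was 0.741 for the top 20%, 0.600 within deciles of depth, 0.649 with Dnajb1 alone, 0.544 without the cells richest in islet RNA, 0.609 per RNA UMI and 0.615 as the mean of per-cell values per RNA UMI, and it reversed to 1.11 for medians. Of 2218 log2 ratios of 202 named genes under 11 settings (4 more had 0 UMIs and gave no value), 1664 stayed within the gene's counting interval, 552 moved beyond it with the same direction and 2 turned direction, both for the top 20%: Mrc1 with a log2 ratio of 0.17 and Ccl7 with 0.42. The cause was not tested.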

Other observations

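Other metabolic and survival genes of the heat-shock-high macrophages went both ways. Of 13 genes of p53 and apoptosis 3 were higher (23.1%, against 8.58% of all genes) and 4 lower (30.8%, near the 31% of all genes). Pmaip1, which encodes the death protein NOXA, stood at 137 against 47.1 CPM (2.91-fold, 2.62 to 3.22), Cdkn1a, the cell cycle inhibitor p21, at 1203 against 554 CPM (2.17-fold) and Mdm2, the ligase of p53, at 438 against 225 CPM (1.95-fold). The pore-forming Bak1 (0.315) and the survival genes Bcl2l1 (0.422) and Bcl2a1b (832 against 1405 CPM, 0.592) were lower, as was Ccng1 (0.579). Of 14 glycolysis genes, of which 7.14% were higher and 21.4% lower, both under the shares of all genes, the glucose transporter Slc2a1 was higher (118 against 51.2 CPM, 2.30-fold) and Hk2 (0.418), Pfkl (0.382) and Pfkp (0.517), the early kinases of the pathway, were lower.

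Among 14 autophagy genes Atg12 (1.54-fold) and Ulk1 (1.73-fold) were higher (14.3%, against 8.58% of all genes). None was lower, and the median log2 was 0.31. Of 19 lysosome genes the proton pump subunit Atp6v0d1 was higher (1.55-fold) and the transcription factor Tfeb lower (0.605). Each share is 5.26%, under the 8.58% and 31% of all genes, so the counts are no result about the group. Of 15 genes of lipid-associated macrophages, Gpnmb, Abcg1, which exports cholesterol (0.482), Pltp (0.542) and the lysosomal lipase Lipa (0.594) were lower and none higher, and their share (26.7%) is under the 31% of all genes. Of 4 cycling genes with enough UMIs Top2a (0.274) and Stmn1 (0.499) were lower (50%, against 31% of all genes). The summed cycling list was level at 268 against 267 CPM, with medians of 200.3 and 165 CPM over cells. Of 82 ribosomal protein genes none was higher and 1 lower (1.22%), and of 13 mitochondrial genes none was higher and 2 lower (15.4%). These shares are under those of all genes.

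Genes with a higher neighbour were higher more often than genes whose neighbours were not. Of 8359 genes with a position in GRCm38, 621 lay within 20 kilobases of a higher gene, and 103 of these (16.6%) were themselves higher, against 320 of 4563 genes (7.01%) whose neighbours were not. The pairs overlap in what they count, since each member of a pair is the other's neighbour. Slc8a2 lies 76 bases from Kptn, which stood at 72.0 against 11.8 CPM (6.12-fold, 5.21 to 7.18) and was picked out after its value was seen. Whether reads passed from one gene to the next was not tested.

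T cell receptor transcripts were at trace levels in the heat-shock-high cells: Trbc2, picked out after its value was seen, had 21 UMIs there and 54 in the other macrophages, 5.93 against 1.597 CPM, and 20 of the 21 lay in 1 cell.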
